A study of Mus musculus with 4 samples.

Results

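The heat shock genes described here are 10 genes picked by name from the 24411 genes listed in each library. They encode the cytosolic HSP70 chaperones Hspa1a, Hspa1b and Hspa8, their partner Hsph1, the HSP90 chaperones Hsp90aa1 and Hsp90ab1, the endoplasmic reticulum chaperone Hspa5, the mitochondrial chaperonin pair Hspd1 and Hspe1, and the transcription factor Hsf1. The rule used no measured value, and all 10 genes were found. Polyadenylated RNA was sequenced from late two-cell embryos of ICR mice, produced by in vitro fertilization and collected at 36 h post-insemination (hpi), with 10 embryos pooled in each library. The study asked how the block of MYC-MAX pairing affects transcription at zygotic genome activation (ZGA), when the embryo starts to make its own transcripts. The 2 DMSO libraries came from embryos cultured in KSOM with the solvent, and the 2 10074-G5 libraries from embryos cultured in the same medium with 6 µM 10074-G5, a small molecule that binds MYC and prevents its pairing with MAX. Culture with either began at 3 hpi according to the sample labels and at 6 hpi according to the series description. Both groups were otherwise of the same strain, medium and age, and an effect of 10074-G5 apart from MYC cannot be told apart from one through MYC.

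Heat shock proteins are molecular chaperones, which bind unfolded or nascent proteins and use ATP to help them fold. HSP70 proteins work in cycles with J-domain proteins, which deliver the client, and nucleotide exchange factors, which release it, and they pass some clients on to HSP90. Hsf1 is the transcription factor that binds heat shock elements in the promoters of these genes under stress. In the mouse embryo, Hspa1a and Hspa1b are known as transcripts made very early, around the first cleavage, and Hsf1 is known as a factor that the oocyte supplies.

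The expected counts summed to between 18206584 and 20718690 per library, and 13549 genes had enough counts to be tested. DMSO replicate 1 stood apart from the other 3 libraries. Its CPM, the counts scaled to the normalized library total, differed by over 2-fold from that of DMSO replicate 2 for 43.4% of the tested genes, whereas this share was 21.9% between the 10074-G5 replicates. The 8 markers of the two-cell embryo, among them Zscan4c and Zfp352, were detected in every library, with a summed level of 975 FPKM (fragments per kilobase of transcript, scaled to the library) in DMSO replicate 1, 3674 in DMSO replicate 2, and 4772 and 5040 in the 10074-G5 libraries. The 8 oocyte markers, among them Zp3 and Gdf9, summed to 872 and 2108 FPKM in the DMSO libraries and to 4429 and 3629 in the 10074-G5 libraries. Of the 12 cumulus cell markers, between 5 and 7 were at 0 in a library, Inha, Amh, Foxl2 and Ptx3 in all 4 of them, and the summed level was 48.8 and 24 FPKM in DMSO and 12.7 and 12.8 FPKM in 10074-G5 embryos. Of 9 spermatid and sperm markers, between 4 and 7 were at 0, with a summed level from 33.8 to 43.2 FPKM. The part of these markers in the results below was not tested. Each library pooled 10 embryos of the two-cell stage, and CPM and FPKM are relative to the library, so RNA per cell was not measured.

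Promoter windows, from 250 bases before to 50 bases after a start site, were taken from RefSeq (GRCm38.p6, the assembly of mm10) for 6 of the 10 genes, those other than Hspa8, Hsp90aa1, Hsp90ab1 and Hsf1. Sequences are shown where a window holds the element of a stress pathway or where 2 genes are nearly alike, which limits how their reads can be assigned. Hspd1 and Hspe1 lie head to head on chromosome 1, at 55077833 to 55088243 on the minus strand and at 55088148 to 55091317 on the plus strand. Their 5′ ends overlap. The window of Hspe1 holds a heat shock element, searched on both strands as the units GAA, TTC and GAA with 2 bases between neighbours, with 2 overlapping matches that lie from 89 to 72 bases before the Hspe1 start. The same bases lie inside the Hspd1 span given above and in the window of a further RefSeq start of Hspd1. They stand at chr1:55088053-55088082 (GRCm38.p6, plus strand) with the element in capitals.
Hspe1: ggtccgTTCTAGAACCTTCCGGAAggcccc
Hsph1, on chromosome 5 from 149616843 to 149636498, had 1 match, after both of its start sites with a window, at chr5:149636279-149636308 (minus strand).
Hsph1: gctgcagaTTCTGGAAAGTTCtcctcagta
Of all 32851 promoter windows, 0.603% held this motif, against 3 of the 6 members with a window, Hspe1, Hsph1 and, at its further start only, Hspd1. The canonical E-box CACGTG, the sequence MYC-MAX binds, was in the windows of Hspd1 and Hsph1, that is 2 of 6, and in 7.15% of all windows. CCAAT boxes were in 5 of 6 members and 37.4% of all windows, and TATAAA in 0 of 6 members and 13.6% of all windows. Members were counted by gene over their 8 windows, whereas the shares are over single windows, so genes with more than 1 window had more chances of a match. A match says only that these letters are present. Only exact matches were searched, so a window without one may still hold an element that departs from these letters. This holds for the heat shock element in the windows of Hspa1a and Hspa1b, which had no match.

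Hspa5, on chromosome 2 from 34772090 to 34776529, was the member with an ER stress response element (CCAAT and CCACG with 9 bases between them), which 0.119% of all windows held. Each match of this element is also a match of CCAAT. The 115 bases before its start, at chr2:34771975-34772089 (plus strand), are shown with the CCAAT boxes and the CCACG end of the element in capitals.
Hspa5: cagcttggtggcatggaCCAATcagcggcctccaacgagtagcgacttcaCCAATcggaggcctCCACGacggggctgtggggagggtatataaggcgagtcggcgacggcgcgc
Hspa1a and Hspa1b are intronless neighbours on the minus strand of chromosome 17, at 34969359 to 34972156 and 34956429 to 34959238. Their 100 bases before the start site, at chr17:34972157-34972256 and chr17:34959239-34959338, are shown with the inverted CCAAT box in capitals.
Hspa1a: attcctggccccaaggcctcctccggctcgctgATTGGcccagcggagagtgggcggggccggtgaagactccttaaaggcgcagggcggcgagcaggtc
Hspa1b: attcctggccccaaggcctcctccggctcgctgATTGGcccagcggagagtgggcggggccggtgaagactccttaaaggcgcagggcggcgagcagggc
Over the 250 bases before the start sites, which were 98.8% identical, Hspa1a and Hspa1b differed by 3 substitutions, C44T, T47C and T249G, with the base of Hspa1a first and positions counted from 1 at the 5′ end of the 250 bases.

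The likeness extends into the transcripts and makes the assignment of reads to a gene uncertain. The study's methods state that only uniquely mapped reads were used, but the expected counts of Hspa1a and Hspa1b were not whole in 3 of the 4 libraries and summed to whole numbers in each, as they do where RSEM divides reads between genes. Of all 150-base stretches of the Hspa1a transcript, 46% were also found without a mismatch in transcripts of other genes, mostly Hspa1b, and for Hspa1b this share was 40.5%. Hspa8 shared 56% of its stretches, chiefly with pseudogenes, Hsp90aa1 36.2%, Hspd1 18.6% and Hspe1 14.1%, and Hspa5, Hsp90ab1, Hsph1 and Hsf1 shared 0%. Levels of the first 6 genes are therefore uncertain. In GENCODE M21, Hspa1a also overlaps the opposite-strand gene Gm20481 by 564 exonic bases, Hspd1 and Hspe1 overlap by 112 bases, and Hspa8 contains 3 snoRNA genes. No strand setting is given in the sources used here.

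At the late two-cell stage the 10 genes ranged from 0.53 FPKM for Hspa1a to 516 FPKM for Hsp90aa1. Hsp90aa1 was the highest member in each of the 4 libraries, from 266 to 516 FPKM, and ranked between 296 and 467 among all listed genes. By the mean over all libraries it was followed by Hspa8 at 211 FPKM, Hspe1 at 188, Hsp90ab1 at 145, Hspa5 at 81.4, Hspd1 at 52.5, Hsph1 at 32.9 and Hsf1 at 31.1 FPKM. Neighbours in this order overlapped in their ranges over the libraries, so that the order among them is not firm. Hspa1b at 3.45 FPKM and Hspa1a at 0.795 FPKM lay below all the others and did not overlap with each other. Together the members made up 0.192% and 0.137% of all TPM (the transcript share of the library) in DMSO replicates 1 and 2, and 0.119% and 0.135% in 10074-G5 replicates 1 and 2.

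**Figure D1:**
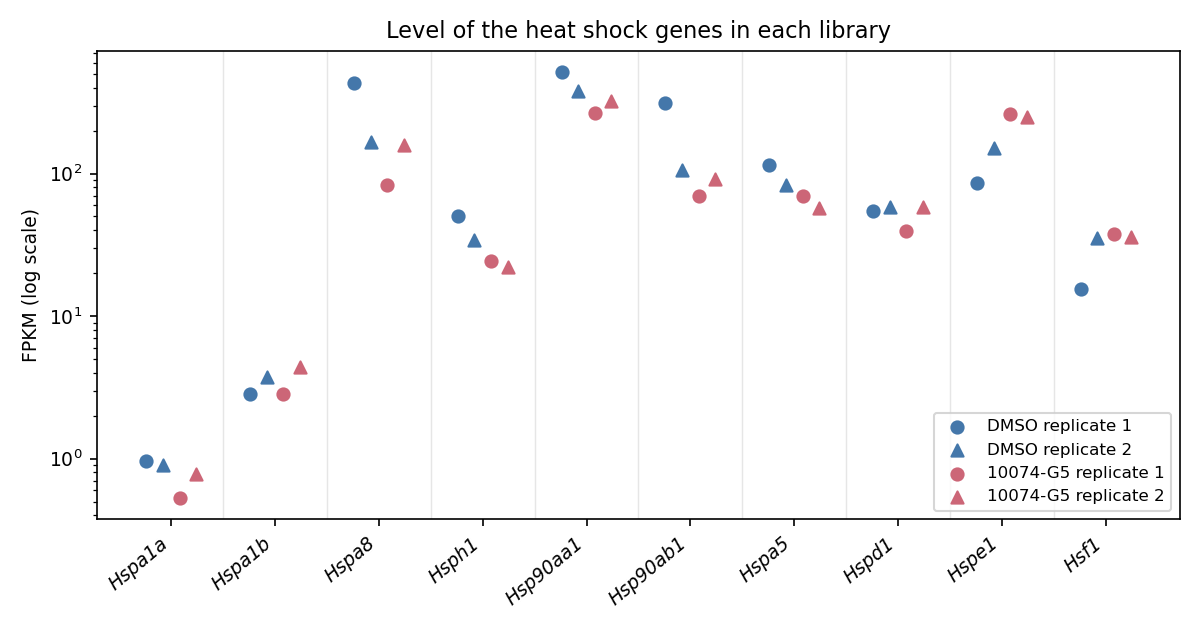
FPKM of each heat shock gene (log scale) in the 4 libraries, with circles for replicate 1 and triangles for replicate 2, DMSO in blue and 10074-G5 in red. Hsp90aa1 is the highest gene in every library, Hspa1a lies below 1 FPKM in all 4, and for Hspa8, Hsp90ab1 and Hsf1 DMSO replicate 1 lies apart from the other 3 points.

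Between 10074-G5 and DMSO embryos, 7 of the 10 genes were lower in both treated libraries than in both control libraries by CPM, which were Hspa1a, Hspa5, Hspa8, Hsp90aa1, Hsp90ab1, Hspd1 and Hsph1. Hspe1 and Hsf1 were higher in both, and Hspa1b overlapped. Among all tested genes, 28.3% did not overlap and were lower, and 28.9% did not overlap and were higher. By FPKM, Hspd1 also overlapped. At the thresholds of an adjusted p under 0.05 and an absolute log2 fold change (log2FC) over 1, edgeR's quasi-likelihood test called 0 of the 10 members and 0% of all tested genes. The study applied these thresholds with another test, DESeq2, and reported genes past them in both directions. An unadjusted p under 0.05 was found for 3 lower members, Hspa8, Hsp90ab1 and Hsph1, where 10.1% of all genes had such a p and were lower, and for 1 higher member, Hspe1, where 4.72% did. DESeq2 on the same genes called Hsp90ab1 as lower (adjusted p = 0.0499) and no other member, against 3.48% of all genes called lower and 0.701% called higher. The median log2FC of the 10 members was -0.72 beside 0.04 for all tested genes, and -0.38 beside 0.03 without DMSO replicate 1. For 9 of the 10 genes DMSO replicate 1 was farther than DMSO replicate 2 from the treated mean. With 2 libraries in each group, the smallest p of an exact permutation test (two-sided) is 0.333. The adjusted p of 0.333 by edgeR, given below, is a separate value, the smallest over all 13549 tested genes. Hspa8, Hsp90ab1, Hsph1 and Hspe1 share it, so it does not rank them.

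**Figure D2:**
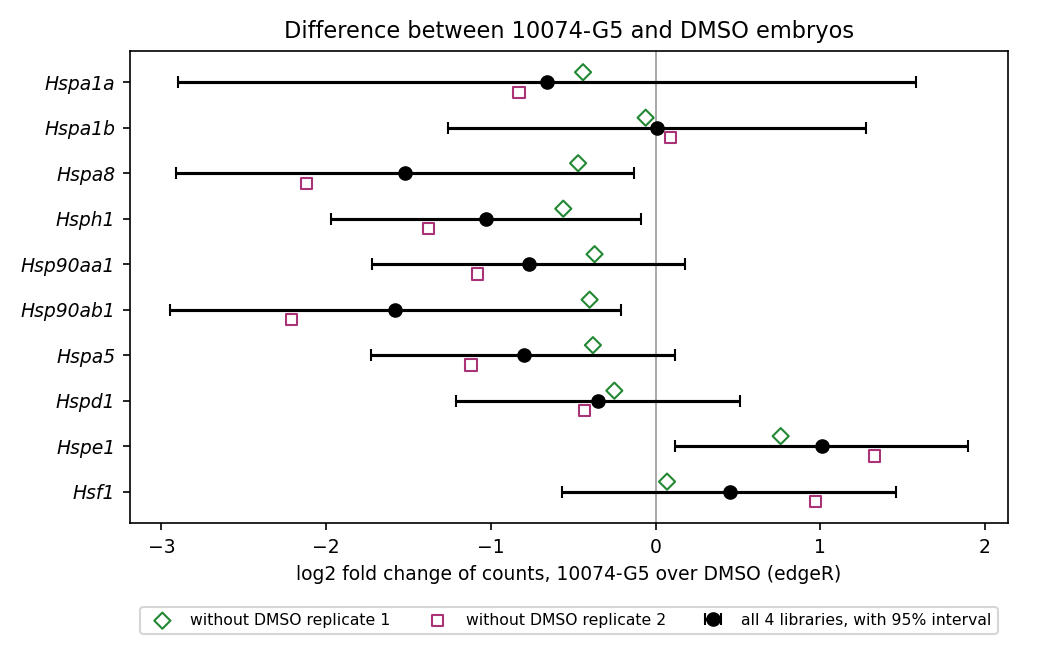
log2 fold change of counts between 10074-G5 and DMSO embryos for each heat shock gene by edgeR, with its 95% interval over all 4 libraries (black), without DMSO replicate 1 (green diamonds) and without DMSO replicate 2 (purple squares). The intervals of Hspa8, Hsph1, Hsp90ab1 and Hspe1 exclude 0 before adjustment, and for these genes the diamonds lie nearer to 0 than the squares.

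Hspa8 encodes the constitutive cytosolic HSP70, the main HSP70 of unstressed cells. Its level was 435 FPKM in DMSO replicate 1, 168 in DMSO replicate 2, 83.8 in 10074-G5 replicate 1 and 158 in 10074-G5 replicate 2. The treated libraries lay below both controls, but 10074-G5 replicate 2 was close to DMSO replicate 2, and the control libraries differed by 2.60-fold. The log2FC of Hspa8 was -1.52 with a standard error of 0.60 and a 95% interval from -2.91 to -0.13 (adjusted p = 0.333 by edgeR). Leaving out DMSO replicate 1 gave -0.47, and leaving out DMSO replicate 2 gave -2.12. Without the filter on low counts, Hspa8 (adjusted p = 0.0307) and Hsp90ab1 (adjusted p = 0.0231) passed the thresholds in edgeR, as did 3.54% of all genes, with 2.63% called as lower. Leaving out DMSO replicate 2 called 6 members (Hspa5, Hspa8, Hsp90aa1, Hsp90ab1, Hspe1 and Hsph1) and 28.7% of all genes.

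Hsph1 encodes HSP110, which releases ADP from HSP70 so that the cycle can go on. It had 50.4 and 34.5 FPKM in DMSO replicates 1 and 2, and 24.5 and 22.2 FPKM in 10074-G5 replicates 1 and 2. Here the treated libraries lay close together and clear of both controls. The log2FC was -1.03 (standard error 0.40, 95% interval from -1.97 to -0.09, adjusted p = 0.333 by edgeR) and -0.56 without DMSO replicate 1. Hspa4, a relative of Hsph1 with the same kind of activity, had 39.1 ± 12.8 FPKM (SD, n = 2) in DMSO and 18.9 ± 4.68 FPKM (SD, n = 2) in 10074-G5 embryos. Its log2FC was -1.23 by edgeR, and -0.67 without DMSO replicate 1. Hspa4l and Hyou1, further relatives, went the other way, with a log2FC of 0.75 and 0.82. Without DMSO replicate 1 these were 0.27 and 0.68.

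Hspa1a and Hspa1b encode the stress-inducible HSP70, and both were low at this stage. The rounded counts of Hspa1a were 47 and 41 in DMSO and 28 and 39 in 10074-G5 embryos, and those of Hspa1b 136 and 173 in DMSO and 148 and 221 in 10074-G5 embryos. Hspa1b thus had more counts than Hspa1a in each library, and its TPM was 2.91 and 4.19 times that of Hspa1a in DMSO and 5.28 and 5.66 times in 10074-G5 embryos. Because the division of reads between such similar genes is an estimate, this ratio is uncertain. The log2FC was -0.66 for Hspa1a (standard error 0.96, 95% interval from -2.90 to 1.58) and 0.01 for Hspa1b (standard error 0.55, 95% interval from -1.26 to 1.28), with adjusted p-values of 0.759 and 0.997 by edgeR. Summed as 1 gene, they had counts of 183, 214, 176 and 260 in the 4 libraries in the same order, and their summed log2FC was -0.12 with a standard error of 0.52 (edgeR, adjusted p = 0.924). A change of 2-fold in either direction was within the intervals of both genes.

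The 2 cytosolic HSP90 genes differed in how far the libraries lay apart. Hsp90ab1, the constitutive HSP90 beta on chromosome 17 from 45567778 to 45573261, had 310 and 107 FPKM in DMSO replicates 1 and 2, and 69.6 and 91.9 FPKM in 10074-G5 replicates 1 and 2. DMSO replicate 1 was 2.91 times DMSO replicate 2, more than DMSO replicate 2 was above either treated library. The log2FC of Hsp90ab1 was -1.58 (standard error 0.59, 95% interval from -2.95 to -0.21, adjusted p = 0.333 by edgeR), and it was -0.40 without DMSO replicate 1. Over the alternatives its adjusted p lay between 0.000379, without DMSO replicate 2, and 0.992.

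Hsp90aa1, the stress-inducible HSP90 alpha on chromosome 12 from 110691036 to 110696395, had 516 and 379 FPKM in DMSO replicates 1 and 2, and 266 and 321 FPKM in 10074-G5 replicates 1 and 2. Both treated libraries lay below both controls. Its log2FC was -0.77 (standard error 0.41, 95% interval from -1.72 to 0.18, adjusted p = 0.387 by edgeR) and -0.37 without DMSO replicate 1. Within a library, the TPM of Hsp90aa1 was 1.66 times that of Hsp90ab1 in DMSO replicate 1 and 3.55 times in DMSO replicate 2, and 3.82 and 3.49 times in the 10074-G5 replicates. The groups overlapped in this ratio, and DMSO replicate 1 was the library that differed.

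Hspa5 encodes BiP, the HSP70 of the endoplasmic reticulum and a marker of the unfolded protein response. It had 115 and 83.2 FPKM in DMSO replicates 1 and 2, and 69.9 and 57.4 FPKM in 10074-G5 replicates 1 and 2. The groups did not overlap. The log2FC of Hspa5 was -0.80 (standard error 0.40, 95% interval from -1.73 to 0.12, adjusted p = 0.367 by edgeR) and -0.38 without DMSO replicate 1. Hsp90b1, the HSP90 of the same compartment, had 23.1 and 51.9 FPKM in DMSO and 51.9 and 59.1 FPKM in 10074-G5 embryos, with a log2FC of 0.47, which was 0.10 without DMSO replicate 1. Whether both genes differed from each other in their response was not tested.

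Hspd1 and Hspe1 encode HSP60 and HSP10, the barrel and the lid of the mitochondrial chaperonin, which act as 1 machine. Hspd1 had 54.6 and 58 FPKM in DMSO replicates 1 and 2, and 39.5 and 58 FPKM in 10074-G5 replicates 1 and 2. Its DMSO replicates were the closest of any member by FPKM, at 1.06-fold, and 10074-G5 replicate 2 was at the level of DMSO replicate 2. The log2FC of Hspd1 was -0.35 (standard error 0.37, 95% interval from -1.21 to 0.51, adjusted p = 0.649 by edgeR). It was -0.07 without 10074-G5 replicate 1 and -0.64 without 10074-G5 replicate 2.

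Hspe1 had 85.3 and 152 FPKM in DMSO replicates 1 and 2, and 264 and 250 FPKM in 10074-G5 replicates 1 and 2. It was the member with the largest positive log2FC, and both treated libraries lay above both controls. The log2FC of Hspe1 was 1.01 (standard error 0.38, 95% interval from 0.12 to 1.90, adjusted p = 0.333 by edgeR), and it ranged from 0.76 to 1.33 when any 1 library was left out. The TPM of Hspe1 was 1.56 and 2.62 times that of Hspd1 in DMSO replicates 1 and 2, and 6.68 and 4.30 times in 10074-G5 replicates 1 and 2. This ratio is free of library scaling, and the groups did not overlap in it. They also did not overlap in Hspa1b over Hspa1a, nor in Hspa8 over Hspd1, at 7.97 and 2.89 in DMSO and 2.12 and 2.72 in 10074-G5 embryos. In the other ratios computed, Hsp90aa1 over Hsp90ab1 and Hspa8 over Hsph1, Hspa5 and Hsp90ab1, they overlapped. None of these ratios was tested further. With 2 libraries against 2, groups that do not overlap have a p of 0.333 by an exact permutation test (two-sided), the smallest it allows.

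**Figure D3:**
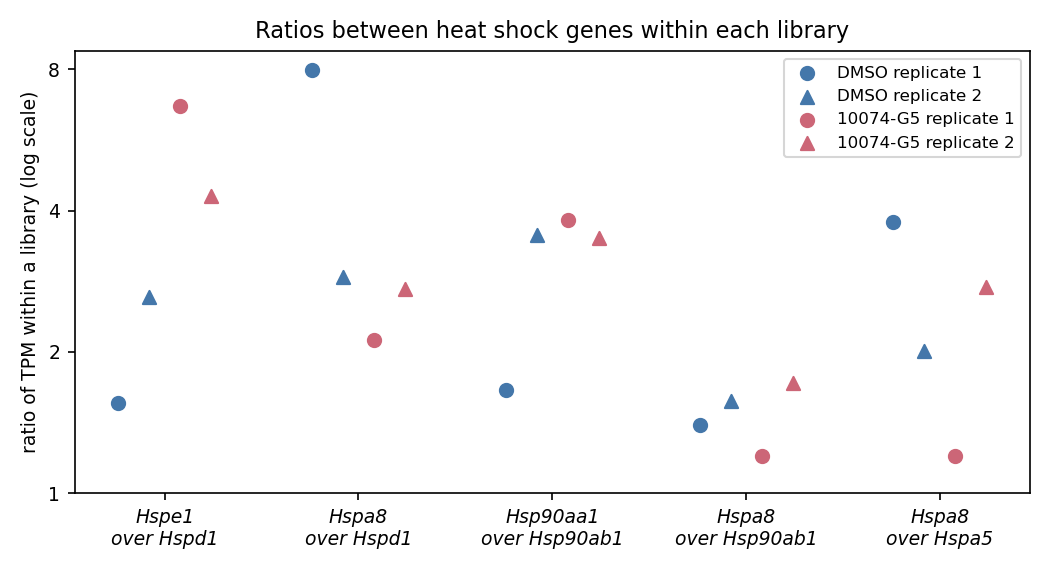
Ratio of TPM between pairs of heat shock genes within each library (log scale), with circles for replicate 1 and triangles for replicate 2, DMSO in blue and 10074-G5 in red. Hspe1 over Hspd1 is 1.56 and 2.62 in DMSO and 6.68 and 4.30 in 10074-G5 embryos, whereas Hsp90aa1 over Hsp90ab1 sets DMSO replicate 1, at 1.66, apart from the other 3 libraries.

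Hsf1, the master regulator, lies on chromosome 15 from 76477362 to 76501155. It had 15.6 and 35 FPKM in DMSO replicates 1 and 2, and 37.7 and 36.1 FPKM in 10074-G5 replicates 1 and 2. DMSO replicate 2 was at the level of the treated libraries, and DMSO replicate 1 was the low one. The log2FC of Hsf1 was 0.45 (standard error 0.43, 95% interval from -0.57 to 1.46, adjusted p = 0.622 by edgeR) and 0.07 without DMSO replicate 1. Hsf2, a second heat shock factor, had 0.89 and 0.84 FPKM in DMSO and 3.60 and 1.64 FPKM in 10074-G5 embryos, for which edgeR gave 1.45 on the log2 scale (standard error 0.77, adjusted p = 0.391), or 0.79 without 10074-G5 replicate 1.

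The other genes of the chaperone system were taken from 9 lists written down from general knowledge, with 144 genes in all, some of them in more than 1 list, and 130 tested. By edgeR, 0 of the 130 were called. An unadjusted p under 0.05 was found for 17 lower and 5 higher genes of the 130, where 10.1% of all tested genes were lower and 4.72% higher with such a p. DESeq2 on the same genes called 3 as lower, Ppid, Dnajc15 and Clpp, and 1 as higher, Dnajc5g, where it called 3.48% of all genes lower and 0.701% higher. These counts were near the shares among all genes. Over all lists the median log2FC was -0.16, with 56.9% of the genes lower, beside a median of 0.04 and 48.5% lower among all tested genes.

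Most genes on the lists of nucleotide exchange factors, HSP90 partners and J-domain proteins had a negative log2FC. Of the 10 listed nucleotide exchange factors, 9 had a negative log2FC, with a median of -0.85 and of -0.37 without DMSO replicate 1. Bag4 was the exception, with a log2FC of 0.96. This list leaves out Hsph1 and its relatives, which went both ways. Hsph1 and Hspa4 had a log2FC of -1.03 and -1.23, and Hspa4l and Hyou1 of 0.75 and 0.82. Bag5 had 77.9 ± 8.78 FPKM (SD, n = 2) in DMSO and 44 ± 5.38 FPKM (SD, n = 2) in 10074-G5 embryos, and Bag1 172 ± 42.3 and 105 ± 5.88 FPKM. By edgeR their log2FC was -0.98 and -0.87 (adjusted p = 0.333 and 0.343), or -0.70 and -0.43 without DMSO replicate 1. Bag3, which links HSP70 to small heat shock proteins, had 9.84 FPKM in DMSO replicate 1 and from 2.49 to 2.88 FPKM in the other 3 libraries.

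Among the 26 HSP90 family members and co-chaperones, 19 had a negative log2FC, and the median was -0.55 and, without DMSO replicate 1, -0.14. Ppid, a cyclophilin that binds HSP90, had 272 and 146 FPKM in DMSO and 53.6 and 88.9 FPKM in 10074-G5 embryos. Both treated libraries were below both controls, with a log2FC of -1.75 by DESeq2 (adjusted p = 0.0186) and -1.74 by edgeR (adjusted p = 0.333), or -1.04 by edgeR without DMSO replicate 1. Sugt1, an HSP90 partner and the most abundant gene named here, had 1092 and 666 FPKM in DMSO and 370 and 485 FPKM in 10074-G5 embryos. Stip1, which bridges HSP70 and HSP90, had 227 ± 75.1 FPKM (SD, n = 2) in DMSO and 131 ± 6.31 FPKM (SD, n = 2) in 10074-G5 embryos. The log2FC of Sugt1 was -1.22 (adjusted p = 0.333 by edgeR), or -0.64 without DMSO replicate 1. For Stip1 it was -0.97 (adjusted p = 0.343 by edgeR), or -0.41 without DMSO replicate 1. Trap1, the mitochondrial HSP90, had a log2FC of -0.78 (adjusted p = 0.475 by edgeR), which was -0.30 without DMSO replicate 1.

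Of the 46 tested J-domain proteins, 28 were lower and 18 higher by their log2FC, with a median of -0.39, which was -0.21 without DMSO replicate 1. Dnajc15, a J-domain protein of the mitochondrial inner membrane, had 278 and 164 FPKM in DMSO and 84.8 and 80.3 FPKM in 10074-G5 embryos. DESeq2 gave it a log2FC of -1.60 and an adjusted p of 0.0312, and edgeR an adjusted p of 0.333 and a log2FC of -1.58, or -0.98 without DMSO replicate 1. Dnajc5g, a member of the cysteine string protein family, had counts of 21 and 41 in DMSO and of 556 and 216 in 10074-G5 embryos, with a log2FC of 3.39 by both tools (adjusted p = 0.00129 by DESeq2 and 0.333 by edgeR). Its log2FC was 3.06 without DMSO replicate 1, and it was the gene of these lists with the largest positive log2FC.

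Genes that Hsf1 is known to switch on under heat did not share 1 direction. Of the 17 tested, 9 had a negative and 8 a positive log2FC, with a median of -0.33, which was 0.07 without DMSO replicate 1. Dnajb1, the J-domain partner induced with HSP70, had 31.9 ± 2.76 FPKM (SD, n = 2) in DMSO and 40.6 ± 9.92 FPKM (SD, n = 2) in 10074-G5 embryos, and Hspb1, a small heat shock protein, 96.8 ± 8.65 and 133 ± 84.3 FPKM. Dnaja1 had 210 FPKM in DMSO replicate 1 and from 55.5 to 74.5 FPKM in the other 3 libraries, a log2FC of -1.45 that was -0.32 without DMSO replicate 1. Dnajb4, in contrast, had 21.1 and 45.1 FPKM in DMSO and 77.4 and 69.9 FPKM in 10074-G5 embryos. By edgeR its log2FC was 1.06 (adjusted p = 0.333), or 0.71 without DMSO replicate 1. Of the 10 small heat shock proteins only 3 had enough counts to be tested, and Hspb6, the one with the smallest p, had a log2FC of 0.67 (adjusted p = 0.708 by edgeR), which was 0.03 without DMSO replicate 1 and -0.07 without 10074-G5 replicate 2.

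The list of 25 endoplasmic reticulum genes had 16 positive values and a median of 0.23, which was -0.05 without DMSO replicate 1. Dnajc3, a partner of Hspa5, had 21.8 and 19.6 FPKM in DMSO and 8.60 and 12 FPKM in 10074-G5 embryos. Ddit3, which encodes the stress factor CHOP, had 96.3 and 137 FPKM in DMSO and 219 and 242 FPKM in 10074-G5 embryos. The groups did not overlap for either gene, with adjusted p-values of 0.333 and 0.334 by edgeR. Both were named for the smallest p of their list. By CPM, 28.3% of all tested genes did not overlap and were lower, and 28.9% did not overlap and were higher. For the 17 genes of mitochondrial folding and proteolysis the median was -0.62, and -0.28 without DMSO replicate 1, with 11 lower and 6 higher. Clpp, the mitochondrial protease, had 188 and 83.6 FPKM in DMSO and 39.6 and 56 FPKM in 10074-G5 embryos (log2FC of -1.72 and adjusted p = 0.031 by DESeq2, adjusted p = 0.333 by edgeR), and its log2FC by edgeR was -1.70, or -0.80 without DMSO replicate 1. Clpb, a disaggregase, had 0.55 and 0.65 FPKM in DMSO and 1.89 and 2.88 FPKM in 10074-G5 embryos, from counts of 44 to 240. By edgeR its log2FC was 1.85 (adjusted p = 0.333), or 1.86 without DMSO replicate 1. Hspa9, the mitochondrial HSP70, had a log2FC of -0.45 that was 0.05 without DMSO replicate 1.

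Among the other HSP70 family members, 6 of 9 had a positive log2FC, with a median of 0.43 (0.05 without DMSO replicate 1). Hspa13, an HSP70 relative of the endoplasmic reticulum, had 0.57 and 1.68 FPKM in DMSO and 2.76 and 3.01 FPKM in 10074-G5 embryos, from counts of 41 to 228. By edgeR its log2FC was 1.28 (adjusted p = 0.381), or 0.77 without DMSO replicate 1. The 6 tested genes of the heat shock factors and their binding proteins had a median of 0.62, and of 0.37 without DMSO replicate 1. Hsbp1, which binds HSF1 and restrains it, had 128 ± 34 FPKM (SD, n = 2) in DMSO and 243 ± 29.9 FPKM (SD, n = 2) in 10074-G5 embryos, and Hsf2bp, a partner of HSF2 with a role in meiosis, 14 ± 6.14 and 36.8 ± 8.17 FPKM. Both were higher in both treated libraries than in both controls, with adjusted p-values of 0.343 and 0.333 by edgeR. They were named for the smallest p of their list, and by CPM 28.9% of all tested genes were higher without overlap.

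**Figure D4:**
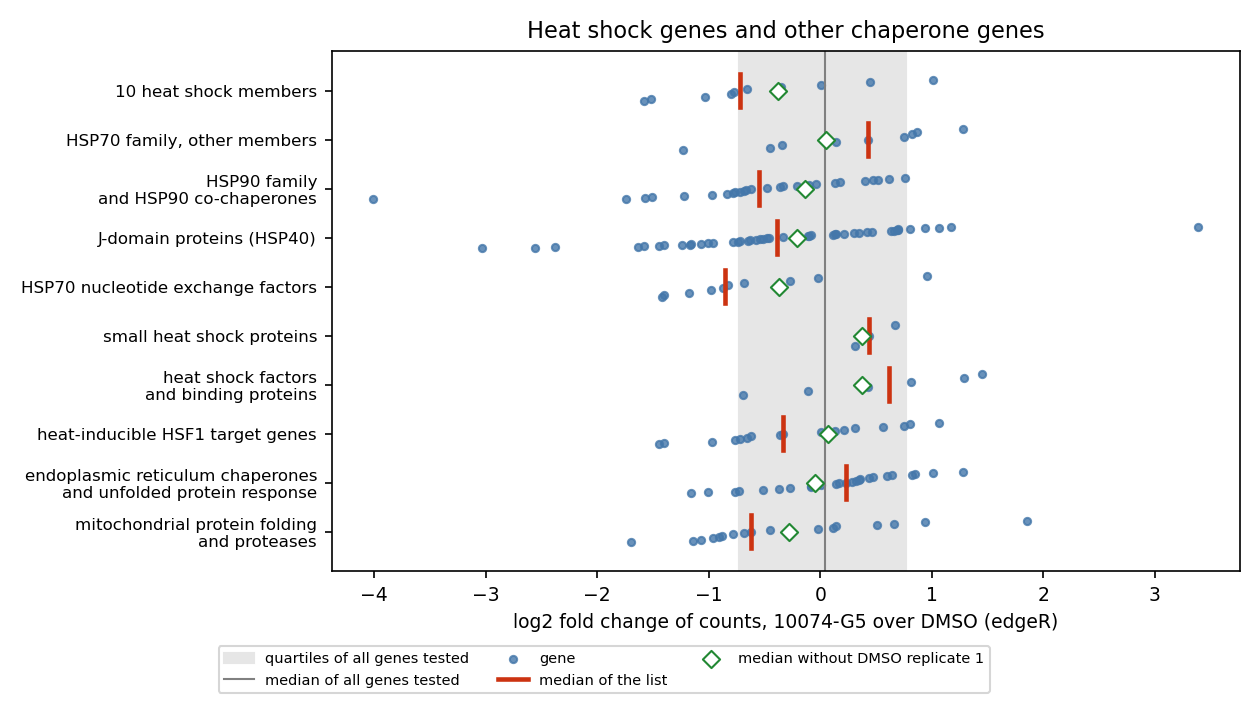
log2 fold change of counts between 10074-G5 and DMSO embryos by edgeR for the heat shock genes and the genes of each chaperone list (blue points), with the median of each list (red bar), its median without DMSO replicate 1 (green diamond) and the median and quartiles of all tested genes (grey). The median of the 10 heat shock genes is -0.72 and that of the nucleotide exchange factors -0.85, and the list medians all lie nearer to 0, or past it, without DMSO replicate 1.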

How the data were processed

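The authors mapped paired reads of SMART-Seq v4 libraries with STAR to mm10, used those that mapped uniquely, by the study's methods, and quantified RefSeq genes by RSEM (STAR 2.7.10 and RSEM 1.3.3 in the submitters' processing notes). The authors deposited RSEM's expected counts, which estimate fragments without normalization. The TPM and FPKM deposited by the authors are scaled to effective transcript length and to the library. No molecular identifiers were used, so PCR copies count as reads.

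Expected counts were rounded, filtered with filterByExpr (minimum count 10, minimum total 15), scaled with TMM factors (0.873 to 1.06) and tested over 13549 genes with edgeR 4.0.16 (quasi-likelihood, robust, Benjamini-Hochberg; R 4.3.3). The standard error is the absolute log2FC over the square root of the F statistic. The study's thresholds were used, which the study applied with DESeq2 rather than edgeR. CPM uses TMM factors, and SD is over the 2 libraries of a group, which the study calls biological replicates. Hspa1a had the fewest counts of the members. Alternatives used DESeq2 1.42.0, limma 3.58.1 on log2(FPKM + 1) or log2(FPKM + 0.1) for genes with a mean of at least 1 FPKM, other scalings and filters, a block for the replicate number, omission of 1 library at a time, and Hspa1a and Hspa1b summed. Empty adjusted p-values of DESeq2 stayed empty.

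The members and lists were chosen with earlier results of these data known. Named from each list were the 2 genes with the smallest unadjusted edgeR p, and by role Hspa9, Hsp90b1, Trap1, Dnajb1, Bag3, Hspb1, Hsf2 and Stip1. Positions are RefSeq's for GRCm38.p6, and 150-base stretches were compared over GENCODE M21 transcripts on both strands. The scripts were tested on simulated data.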

Additional observations from a re-analysis of the deposited data

How the results depend on the processing

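Of 138 values of single members under the alternatives, 134 kept their direction. The other 4 belong to Hspa1b, whose log2FC of 0.01 was -0.02 with the replicate block, -0.06 without DMSO replicate 1, -0.33 without 10074-G5 replicate 2 (0.33 without 10074-G5 replicate 1) and -0.12 when summed with Hspa1a. Dropping the filter on low counts, or summing Hspa1a and Hspa1b, barely moved the log2FC of the remaining members. These settings therefore hardly test their direction. The number of members past the thresholds, 0 by edgeR, was 2 without the filter on low counts (Hspa8 and Hsp90ab1) and 1 with DESeq2 on the same genes, and it was 0 with DESeq2 given transcript lengths, with limma, with the other scalings, with at least 10 counts in every library, with the replicate block and with the adjusted p alone. It ranged from 0 to 6 when 1 library was left out, the 6 without DMSO replicate 2, when 28.7% of all genes were called. The median log2FC of the members ranged from -0.96 to -0.38 when 1 library was left out, and was -0.55 with library totals, which moved the median of all genes from 0.04 to 0.17. Of the genes of the chaperone lists, 0 were called by edgeR, 6 without the filter (3.54% of all genes), 4 with DESeq2 on the same genes (4.18%) and 4 with transcript lengths (2.81%), 1 with the replicate block (0.325%), and from 0 to 42 when 1 library was left out. The highest of these counts came without DMSO replicate 2, the setting in which 28.7% of all genes were called. The DESeq2 fit with transcript lengths was also without the filter on low counts, over 18208 genes. It thus changed the set of genes as well as the lengths. The cause of the differences between settings was not tested. Same-numbered replicates did not deviate together (correlation of -0.0343 over 13549 genes), so the numbers were not taken as pairs, and the block raised the called genes from 0 to 44. Fits that leave out 1 library take the lone sample of its group to vary like the other group.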
